A study of Mus musculus with 8 samples.

Results

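Integrins are cell surface receptors made of an α and a β chain, and the 36 genes described here are the integrin chains together with the proteins that tie them to the cytoskeleton. They were chosen by gene symbol from a table of 49671 genes, by a rule that uses no measured value but was set with earlier results of these data known. The symbols covered 25 chain genes and 11 linker genes and took 37 rows of the table, because Itgam had 2 rows. RNA of sorted mammary gland cells from female mice of mixed genetic backgrounds was sequenced in 8 libraries, 2 in each of 4 groups. The sort removed CD45, CD31 and CD140a positive cells (blood, endothelial and fibroblast cells) and took CD24+ cells with low CD29 as luminal (40000 cells) and those with high CD29 as basal (5000 cells). The CD1 luminal and CD1 basal groups came from CD1 mice, an outbred strain. The DNp63 luminal and DNp63 basal groups were GFP-positive cells from K8rtTA/TetOCre/Rosa26-DNp63-IRES-GFP mice. In those mice doxycycline lets a keratin 8-driven activator switch on Cre, and Cre in turn releases ΔNp63, the p63 form normal to basal cells, together with GFP from the Rosa26 locus. The sources used here give neither ages nor the doxycycline schedule of these mice. Strain, doxycycline and the GFP gate all went with the transgene, and their effects cannot be told apart from that of ΔNp63.

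In the mammary epithelium the outer basal layer sits on the basement membrane and touches the inner luminal layer. Basal cells hold on to laminin through α6β4, which forms hemidesmosomes anchored to keratin, and through α3β1 and α6β1, which feed into actin at focal adhesions. A further class of receptors reads the Arg-Gly-Asp (RGD) motif of fibronectin, vitronectin, osteopontin and latent TGF-β. Talins and kindlins bind the β chain tail from inside and switch the receptor to its active state. The linker complex of ILK, PINCH and parvin then couples it to actin. The symbols given as markers of the set were Itgb1, Itga6 and Itgb4, and all 3 were well detected in every library. Itgb1 encodes CD29, the protein on which the gates were set, so its own difference between gates belongs to the sort.

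Values are reads per 20000000 reads of a library, and recovered depths were 4136987 to 7206700 reads. Differences are log2 differences ± standard error (SE) from limma, computed on scaled values with 8 added, which understates changes of low genes. A gene was called when its Benjamini-Hochberg adjusted p over all 16900 tested genes was under 0.05, and "rose" and "fell" are used only of called genes. Of the 36 members, 32 were tested. Itgae, Itgam, Itgax and Ilk did not reach a value of 40 in 2 libraries. Of the tested members, 6 (Itga7, Itga4, Itgb2, Itgb7, Parvb and Fermt3) would not have passed this filter in the luminal libraries alone, and Fermt3 would not have passed in the basal libraries alone. Whether the 2 libraries of a group were taken from different animals is not stated in the labels, so p-values measure only the spread between these libraries, which may be technical.

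Lineage markers followed the gates. The summed value of 8 basal markers was 1737 to 4159 in luminal and 193519 to 214394 in basal libraries, and that of 8 luminal markers was 222115 to 256805 in luminal and 15623 to 38875 in basal libraries. Trp63, the gene carried by the transgene, was at 61 and 45 in CD1 luminal and 1297 and 1460 in DNp63 luminal libraries, and 5457 and 7079 in CD1 basal libraries and 8088 and 8306 in DNp63 basal ones. Transcripts of other cells differed between the gates as well, although CD31 and CD140a had been gated out. Summed values of 14 endothelial markers were 3563 to 4851 in luminal and 46852 to 67477 in basal libraries, and 13 of the 14 rose in both gate comparisons. Pecam1, which encodes CD31, was at 331 to 571 in luminal and at 4980 to 8163 in basal libraries. The 8 pericyte markers summed to 4228 to 5882 in luminal and 17670 to 24119 in basal libraries, with 7 of 8 called higher in each gate comparison. In CD1 mice 1 was not called, and in DNp63 mice 1 was called lower (-0.44). The 8 fibroblast markers varied within groups, with sums of 9215 and 45694 in CD1 luminal and 17544 and 10114 in DNp63 luminal libraries, and 19441 and 52955 in CD1 basal libraries and 73819 and 97421 in DNp63 basal ones. The 5 adipocyte markers summed to 396 to 646 in luminal and 14718 to 25571 in basal libraries, and the 6 platelet markers to 64 to 111 and 134 to 218. The 11 immune markers stayed low, with sums of 794 to 1941. In bulk RNA, fewer cells of a type and less RNA per cell cannot be told apart. The part of these other cells was not tested for any member or pathway gene that differed between the gates, including those described without this limit.

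**Figure D1:**
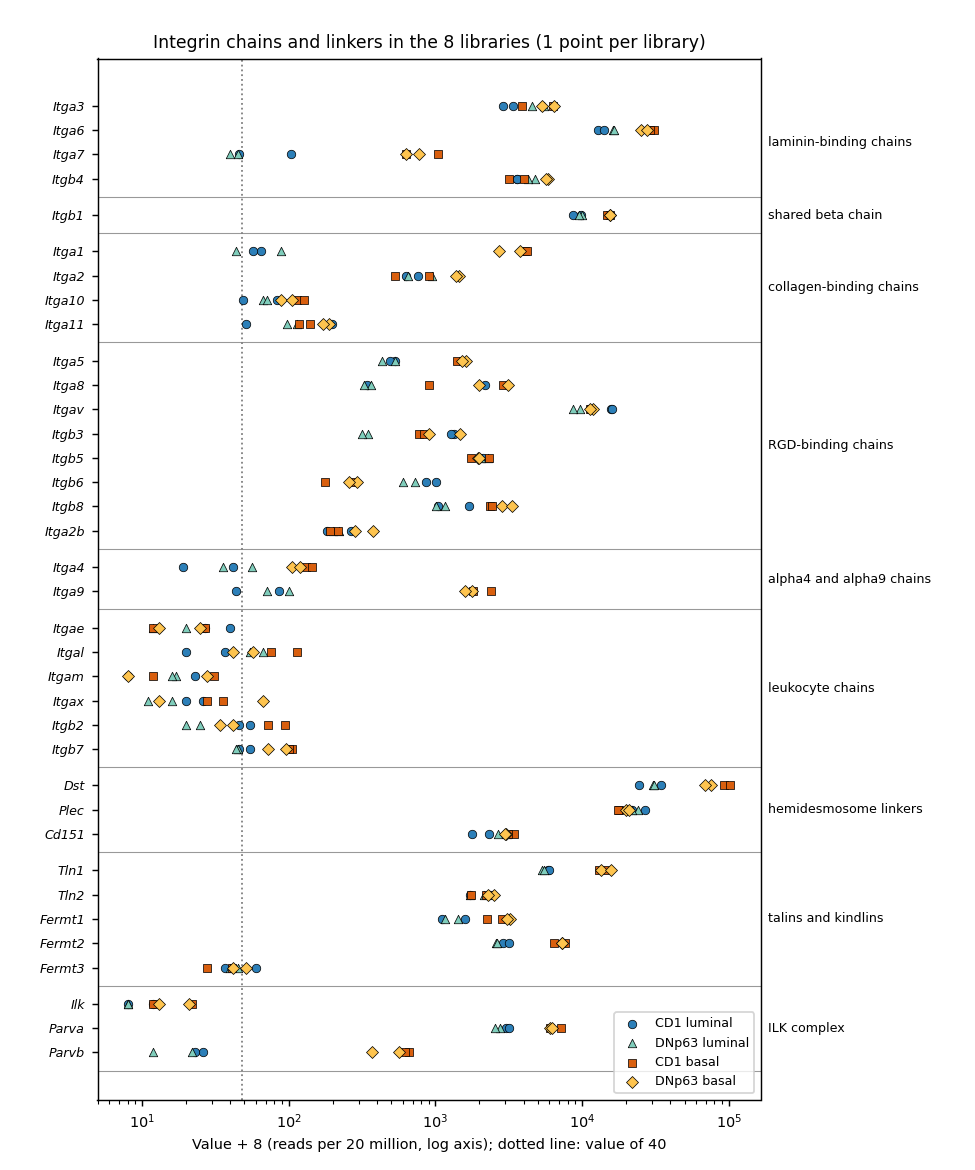
Values of all 36 members in the 8 libraries, with 8 added, on a log axis in reads per 20000000 and 1 point per library, grouped by role; the dotted line marks a value of 40. Itga1, Itga9, Itga7 and Parvb separate by gate over an order of magnitude, most leukocyte chains sit at the line or left of it, and Itgb3 has its lowest points in the DNp63 luminal libraries.

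The first comparison asked which members separate basal from luminal cells of CD1 mice. In CD1 basal against CD1 luminal libraries, 18 members rose, 4 fell and 10 were not called, against a background of 24.2% of all tested genes called higher and 20.1% called lower (44.3% in either direction). The median difference over the 32 members was 0.87, beside -0.01 over all tested genes. Of the 22 tested chains 11 rose and 3 fell, and of the 10 tested linkers 7 rose and 1 fell. In the deposited values, 16 of the 32 tested members had all 4 basal libraries above all 4 luminal ones and 2 (Itgb6 and Plec) had all 4 below, with 14 overlapping; the same separation was seen above in 26.4% and below in 24.8% of all tested genes. Itga7, Itga4, Itgb7 and Parvb, counted among those that rose and those with all basal libraries above, passed the filter only through the basal libraries. They could hardly have been called lower, so they add no support to these counts or to the median. The shares of all tested genes rest on the same filter. Itgb1, which encodes the gating protein, is also among those that rose and those with all basal libraries above. Its difference belongs to the sort, so it adds no support either. The members are taken by role in what follows, each with its gate difference and its difference between the mice.

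Laminin-binding chains rose in the basal gate except for Itgb4 in CD1 and Itga3 in DNp63 mice, which were not called. Itgb1, the β chain shared by most laminin, collagen and fibronectin receptors (chromosome 8, 128685654 to 128733200, plus strand of GRCm38), was at 9911 and 8621 in CD1 luminal and 10069 and 9516 in DNp63 luminal libraries, and 15456 and 14771 in CD1 basal libraries and 15628 and 15562 in DNp63 basal ones. All basal libraries were above all luminal ones, by 1.62-fold in CD1 mice (0.69 ± 0.11, adjusted p = 0.00125) and by 1.63-fold in DNp63 mice (0.70 ± 0.11, 0.00105). As the transcript of the gating protein it was meant to differ in this way. Between the mice it hardly moved within a gate, with DNp63 to CD1 ratios of 1.02 (95% interval 0.851 to 1.21) in the luminal and 1.02 (0.855 to 1.22) in the basal gate.

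Itga6, the α partner in both α6β1 and α6β4 (chromosome 2, 71745616 to 71858416, plus strand), was at 12886 and 14177 in CD1 luminal and 16246 and 16402 in DNp63 luminal libraries, and 30833 and 28967 in CD1 basal libraries and 25364 and 27537 in DNp63 basal ones. The 4 groups did not overlap. Itga6 rose 2.19-fold in CD1 basal cells (1.13 ± 0.11, 8.13e-05) and 1.65-fold in DNp63 basal cells (0.72 ± 0.11, 0.000841). Neither the difference between the mice in either gate nor the difference of the gate effects (-0.41 ± 0.16, adjusted p = 0.395) was called.

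Itgb4, the hemidesmosomal β chain with a long tail that binds plectin (chromosome 11, 115974709 to 116008412, plus strand), did not follow its partner. It was at 3621 and 3598 in CD1 luminal and 4752 and 4265 in DNp63 luminal libraries, and 4034 and 3194 in CD1 basal libraries and 5863 and 5652 in DNp63 basal ones. The 2 CD1 groups overlapped, with a basal to luminal difference of -0.02 ± 0.13 (0.908) and an interval of 0.806-fold to 1.20-fold, whereas both DNp63 basal libraries were the highest of all. Itgb4 rose in DNp63 basal over DNp63 luminal cells by 0.38 ± 0.13 (0.0339), a call lost without DNp63 luminal 2 (adjusted p = 0.194), DNp63 basal 1 (0.133) or DNp63 basal 2 (0.0986) and without the filter on low values or with no scaling (0.0592 and 0.0532). DNp63 basal against CD1 basal gave 0.66 ± 0.13 (0.0708), which was not called, and passed the threshold without CD1 luminal 1 (0.0449) or CD1 luminal 2 (0.0447). Per exonic kilobase, the ratio of Itga6 to Itgb4 transcripts was 2.77 and 3.06 in CD1 luminal and 2.66 and 2.99 in DNp63 luminal libraries, and 5.94 and 7.05 in CD1 basal libraries and 3.36 and 3.79 in DNp63 basal ones. The ratio was thus highest in CD1 basal cells, with DNp63 basal cells between them and the luminal groups.

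Itga7, an α chain best known from muscle, was at 96 and 38 in CD1 luminal and 37 and 32 in DNp63 luminal libraries, and 628 and 1042 in CD1 basal libraries and 628 and 769 in DNp63 basal ones. It rose by 3.55 ± 0.41 (0.000191) and 4.07 ± 0.41 (7.48e-05) in the 2 gate comparisons. The endothelial, pericyte and adipocyte sums, given above, moved in the same direction between gates. Their part in the Itga7 values was not tested. Itga3, the α chain of the laminin-332 receptor α3β1, had means of 3136.5 ± 359 (SD, n = 2) in CD1 luminal, 5028 ± 658 in DNp63 luminal, 5893 ± 792 in DNp63 basal and 5133.5 ± 1720 in CD1 basal libraries. It rose by 0.66 ± 0.21 (0.0333) in CD1 basal cells, a call lost without CD1 luminal 2 (0.116) or CD1 basal 1 (0.216), without the filter (0.0706) and in a fit of the compared libraries alone (0.0761). It was not called in DNp63 mice (0.26 ± 0.21, 0.343).

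Among the collagen-binding chains, Itga1 rose in both basal groups, and its neighbour Itga2 was called in DNp63 basal cells against either luminal group. Itga1 and Itga2, the α chains of the collagen receptors α1β1 and α2β1, lie next to each other on the minus strand of chromosome 13 (114953096 to 115101964 and 114833081 to 114932100), 20995 bases apart. Itga1 was at 57 and 49 in CD1 luminal and 81 and 36 in DNp63 luminal libraries, and 4112 and 4220 in CD1 basal libraries and 3789 and 2732 in DNp63 basal ones. Its rise of 68.1-fold in CD1 mice (6.09 ± 0.31, 3.03e-06) had the greatest size among the 32 tested members, and in DNp63 mice it was 52.4-fold (5.71 ± 0.31, 3.13e-06). Itga1 moved with the endothelial, pericyte and adipocyte sums between gates. DNp63 basal 2 was the lowest basal library for Itga1 (2732) and for these sums (46852, 17670 and 14718). The part of these cells in Itga1 was not tested. Itga2 was not called between the CD1 gates, with 621 and 749 in CD1 luminal and 941 and 646 in DNp63 luminal libraries, and 527 and 899 in CD1 basal libraries and 1450 and 1378 in DNp63 basal ones (0.00 ± 0.28, adjusted p = 1, interval 0.647-fold to 1.55-fold). Only the DNp63 basal libraries stood apart, above the other 6. Itga2 rose there over DNp63 luminal cells by 0.88 ± 0.28 (0.0270), a call lost without DNp63 luminal 2 (0.177), DNp63 basal 1 (0.113) or DNp63 basal 2 (0.0920) and without the filter (0.0585). Against CD1 luminal cells it rose by 1.01 ± 0.28 (0.0155), a call lost without CD1 luminal 1 (0.0511), DNp63 basal 1 (0.0779) or DNp63 basal 2 (0.0647). Against CD1 basal cells the difference of 1.01 ± 0.28 (0.190) was not called.

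The promoter windows of this neighbouring pair are shown because 2 genes of 1 receptor class with a common orientation differed so far in their gate response. Each runs 5′ to 3′ from 250 bases before to 50 bases after the RefSeq start on the minus strand of GRCm38.p6, at chr13:115101915-115102214 for Itga1 and chr13:114932051-114932350 for Itga2. Capitals mark CATG, 1 form of the core of a p53-family half-site, and GGGCGG, the GC box. Other forms of that core were not searched.
Itga1: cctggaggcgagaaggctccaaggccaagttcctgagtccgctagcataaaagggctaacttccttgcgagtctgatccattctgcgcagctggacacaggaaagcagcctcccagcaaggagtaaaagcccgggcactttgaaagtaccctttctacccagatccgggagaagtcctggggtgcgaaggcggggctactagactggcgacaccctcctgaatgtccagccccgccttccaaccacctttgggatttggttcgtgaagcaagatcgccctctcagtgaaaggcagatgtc
Itga2: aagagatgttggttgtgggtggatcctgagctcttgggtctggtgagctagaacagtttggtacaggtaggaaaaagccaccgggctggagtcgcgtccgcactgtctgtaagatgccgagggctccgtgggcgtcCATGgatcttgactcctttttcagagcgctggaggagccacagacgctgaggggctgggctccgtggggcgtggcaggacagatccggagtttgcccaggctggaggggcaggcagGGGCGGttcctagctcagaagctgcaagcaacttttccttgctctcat
On either strand, the Itga1 window held neither motif and the Itga2 window held 1 of each. Of all 32851 windows of this length, 61.1% held CATG and 35.7% GGGCGG, so neither is rare. G and C made up 56.7% of the Itga1 and 59.3% of the Itga2 window. For 26 of the 36 members 31 windows were found, of which 12 held CATG and 15 GGGCGG. These windows belonged to 10 and 14 genes.

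The other collagen-binding chains, Itga10 and Itga11, were low, at 41 to 120 and at 43 to 189, and were called in no comparison. Of the exonic bases of Itga10, 33.5% are shared with a gene model on the same strand, so its counts are uncertain. Itga11 was at 43 and 189 in the 2 CD1 luminal libraries, the second of which also had the higher fibroblast sum. Its CD1 gate difference of 0.35 ± 0.54 (0.633) was 1.33 and called without that library (0.0141), and the part of fibroblasts was not tested. Itga10 gave 0.91 ± 0.34 (0.0586) in the CD1 gates and was called without CD1 luminal 1 (0.0245) or with a pseudocount of 32 (0.0486).

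RGD-binding chains moved in both directions between the gates. In CD1 mice 2 of 8 rose in basal cells (Itga5 and Itgb8) and 3 fell (Itgav, Itgb3 and Itgb6). In DNp63 mice 5 rose and 1 fell. Of all tested genes 24.2% were called higher and 20.1% lower in the CD1 gates, and 24.9% and 24.4% in the DNp63 gates. Movement in both directions was thus not particular to these chains, and the CD1 share that rose was near the background. Itga5, the fibronectin receptor chain, was at 522 and 482 in CD1 luminal and 522 and 427 in DNp63 luminal libraries, and 1539 and 1390 in CD1 basal libraries and 1623 and 1523 in DNp63 basal ones. The gates did not overlap, and Itga5 rose by 1.52 ± 0.15 (8.77e-05) in CD1 and by 1.75 ± 0.15 (3.40e-05) in DNp63 mice. Itgb6, a β chain of epithelia whose αvβ6 receptor activates latent TGF-β, was the opposite, at 859 and 1008 in CD1 luminal and 722 and 595 in DNp63 luminal libraries, and 271 and 168 in CD1 basal libraries and 287 and 252 in DNp63 basal ones. It fell by 2.10 on the log2 scale in CD1 basal cells (SE 0.24, 0.000175) and by 1.23 in DNp63 basal cells (SE 0.24, 0.00279). It was the only member to fall in both gate comparisons. Itgb8, the other TGF-β-activating partner of αv, had group means of 1355.5 ± 460 (SD, n = 2) in CD1 luminal, 1082.5 ± 103 in DNp63 luminal, 3086 ± 346 in DNp63 basal and 2387 ± 41 in CD1 basal libraries. It rose by 0.84 ± 0.22 (0.0125) and 1.53 ± 0.22 (0.000511); the first call was lost without CD1 basal 2 (0.0684).

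Itgav and Itgb3 encode the 2 chains of the vitronectin and osteopontin receptor αvβ3, and they were the only members called between the mice in the luminal gate. In DNp63 luminal against CD1 luminal libraries 0 members rose and 2 fell, against 2.66% of tested genes called higher and 1.78% called lower (4.44% in either direction). The median over the 32 members was -0.13, beside 0.01 over all tested genes. Itgb3 (chromosome 11, 104608000 to 104670476, plus strand) was at 1344 and 1271 in CD1 luminal and 342 and 310 in DNp63 luminal libraries, and 765 and 831 in CD1 basal libraries and 898 and 1460 in DNp63 basal ones. The DNp63 luminal libraries were the lowest and lay apart from all others. Itgb3 fell by 2.04 there (SE 0.22, 0.00222), or 4.11-fold, and was called in each of the 16 alternatives run, with values from -2.11 to -1.96. Itgav (chromosome 2, 83724397 to 83806916, plus strand) was at 15733 and 16007 in CD1 luminal and 9761 and 8643 in DNp63 luminal libraries, and 11487 and 11298 in CD1 basal libraries and 11860 and 11352 in DNp63 basal ones. It too was lowest in DNp63 luminal cells, 1.80-fold under CD1 luminal cells, and fell by 0.85 (SE 0.11, 0.00424). This call was lost without DNp63 luminal 2 (0.0609) and in a fit of the compared libraries alone (0.100). Marker sums of pericytes (5882 and 5572 in CD1, 5071 and 4228 in DNp63 luminal libraries), adipocytes (605 and 646, 435 and 396) and immune cells (897 and 876, 794 and 873) were also lower in both DNp63 luminal libraries. The basal marker sum was higher (3692 and 1737, 4119 and 4159), but it includes Trp63, the gene carried by the transgene (61 and 45, 1297 and 1460). Of the 8 basal markers 1 was called higher here and 0 lower, against 2.66% and 1.78% of all tested genes. The luminal, endothelial, fibroblast and platelet sums overlapped between the mice; platelets, another cell type known for αIIbβ3 and αvβ3, had 80 and 86 against 111 and 64. The part of other cells in these falls was not tested.

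Between the gates, the αv and β3 chains were called in opposite directions in the 2 mice. In CD1 mice both fell in basal cells, Itgav by 0.49 (SE 0.11, 0.00650) and Itgb3 by 0.72 (SE 0.22, 0.0271), and in DNp63 mice both rose, Itgav by 0.37 ± 0.11 (0.0222) and Itgb3 by 1.82 ± 0.22 (0.000225). Itgb3 was the only member called in the interaction, which subtracts the luminal effect of the DNp63 mice from their basal effect, at 2.54 ± 0.31 (0.0243), against 0.0828% of tested genes called higher and 0.26% called lower (0.343% in either direction). The Itgb3 interaction was not called without DNp63 luminal 1 (0.107), DNp63 luminal 2 (0.114), CD1 basal 1 (0.126), CD1 basal 2 (0.0962) or DNp63 basal 2 (0.0686), nor without the filter (0.0900); over all alternatives its value was 2.19 to 2.89. The Itgav interaction of 0.86 ± 0.16 (0.0709) missed the threshold and passed it without CD1 luminal 1 (0.0456). The Itgb3 call in the CD1 gates was lost without CD1 luminal 1, CD1 luminal 2, CD1 basal 1 or CD1 basal 2 (0.0609 to 0.126) and without the filter (0.0551), and the Itgav call in the DNp63 gates without DNp63 luminal 2 (0.163), DNp63 basal 1 (0.109) or DNp63 basal 2 (0.0725). These comparisons share libraries: the luminal difference between mice and the CD1 gate difference both rest on the CD1 luminal libraries, and the former and the DNp63 gate difference on the DNp63 luminal ones.

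**Figure D2:**
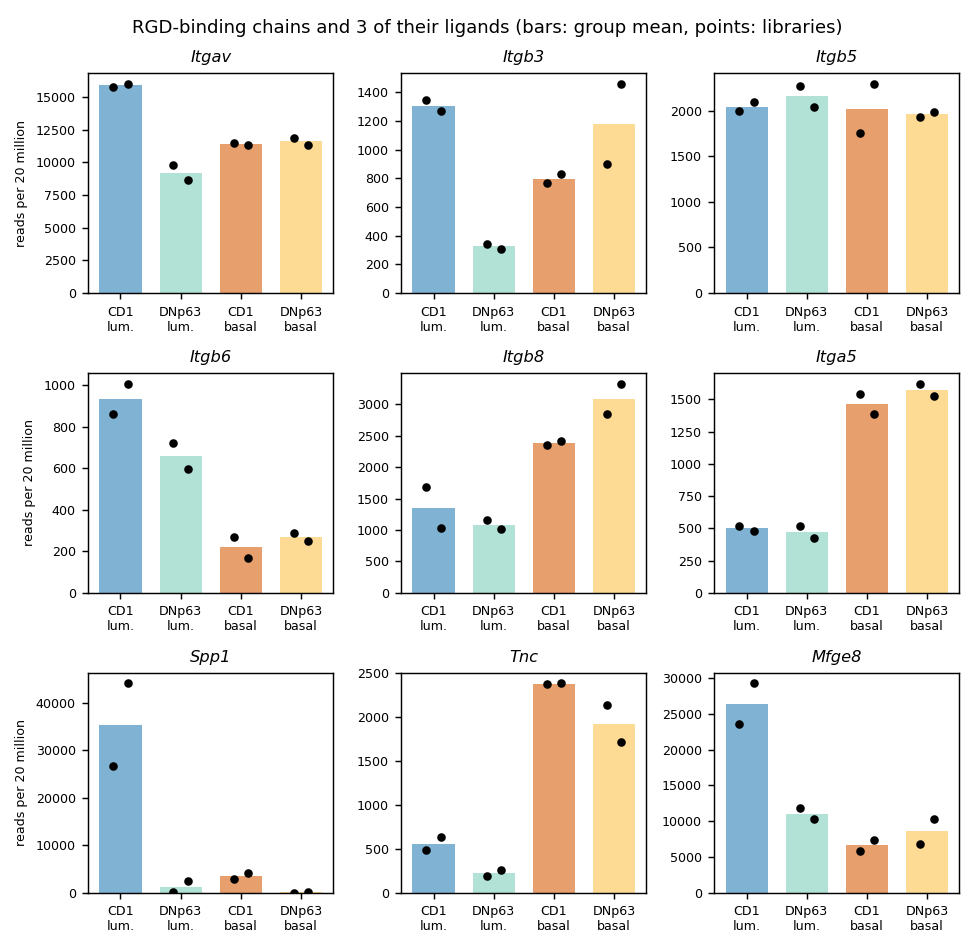
Values of 6 RGD-binding chains and of their ligands Spp1, Tnc and Mfge8 in reads per 20000000, with bars for group means and points for the 2 libraries of each group. Group means of Itgav, Itgb3, Spp1 and Mfge8 are highest in CD1 luminal cells, although DNp63 basal 2 (1460) is the highest library for Itgb3, Itgb5 is level across groups, and Itgb6 and Itga5 run in opposite directions between the gates.

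The remaining αv partner, Itgb5, was level across all groups, at 1754 to 2300, with gate and mouse differences of -0.10 to 0.01, and in CD1 mice its basal to luminal ratio had an interval of 0.759-fold to 1.24-fold. Per exonic kilobase, the ratio of Itgav to Itgb3 transcripts was 6.43 and 6.92 in CD1 luminal and 15.7 and 15.3 in DNp63 luminal libraries, and 8.25 and 7.47 in CD1 basal libraries and 7.25 and 4.27 in DNp63 basal ones. Itga8, the nephronectin receptor chain, had 334 and 2179 in CD1 luminal and 358 and 321 in DNp63 luminal libraries, and 898 and 2879 in CD1 basal libraries and 1986 and 3133 in DNp63 basal ones. The 2 libraries of both CD1 groups lay far apart, with the second one high in each. The same 2 second libraries were the higher ones of their groups for fibroblast markers (45694 and 52955) and for Pdgfra, which encodes CD140a (1049 and 1018 beside 196 and 344 in the first ones); the part of fibroblasts in Itga8 was not tested. Itga8 rose in the DNp63 gates by 2.88 ± 0.79 (0.0154), a call lost without DNp63 luminal 1 (0.0548), DNp63 luminal 2 (0.0677) or DNp63 basal 2 (0.0952), and in the CD1 gates (0.89 ± 0.79, 0.393) the value was 2.24 and called without CD1 luminal 2 (0.0141), and -0.44 without CD1 luminal 1. Itga2b, the platelet αIIb chain, was at 174 to 367 and was not called in any comparison.

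Itga4 and Itga9, whose β1 receptors bind VCAM1, fibronectin splice forms and tenascin C, both rose in the basal gate. Itga9 was at 36 and 78 in CD1 luminal and 92 and 63 in DNp63 luminal libraries, and 1795 and 2396 in CD1 basal libraries and 1762 and 1591 in DNp63 basal ones. The gates were more than an order of magnitude apart, at 33.6-fold in CD1 (5.07 ± 0.33, 1.02e-05) and 20.3-fold in DNp63 mice (4.35 ± 0.33, 1.70e-05). Itga4 was far lower, at 11 and 34, 48 and 28, 124 and 136, and 97 and 112 in the CD1 luminal, DNp63 luminal, CD1 basal and DNp63 basal libraries. It rose by 2.28 ± 0.44 (0.00307) and 1.35 ± 0.44 (0.0314), and the second call was lost without DNp63 luminal 2 (0.174), DNp63 basal 1 (0.0864) or DNp63 basal 2 (0.127) and without the filter (0.0645). Both genes moved with the endothelial, pericyte and immune sums between gates, whose part was not tested.

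**Figure D3:**
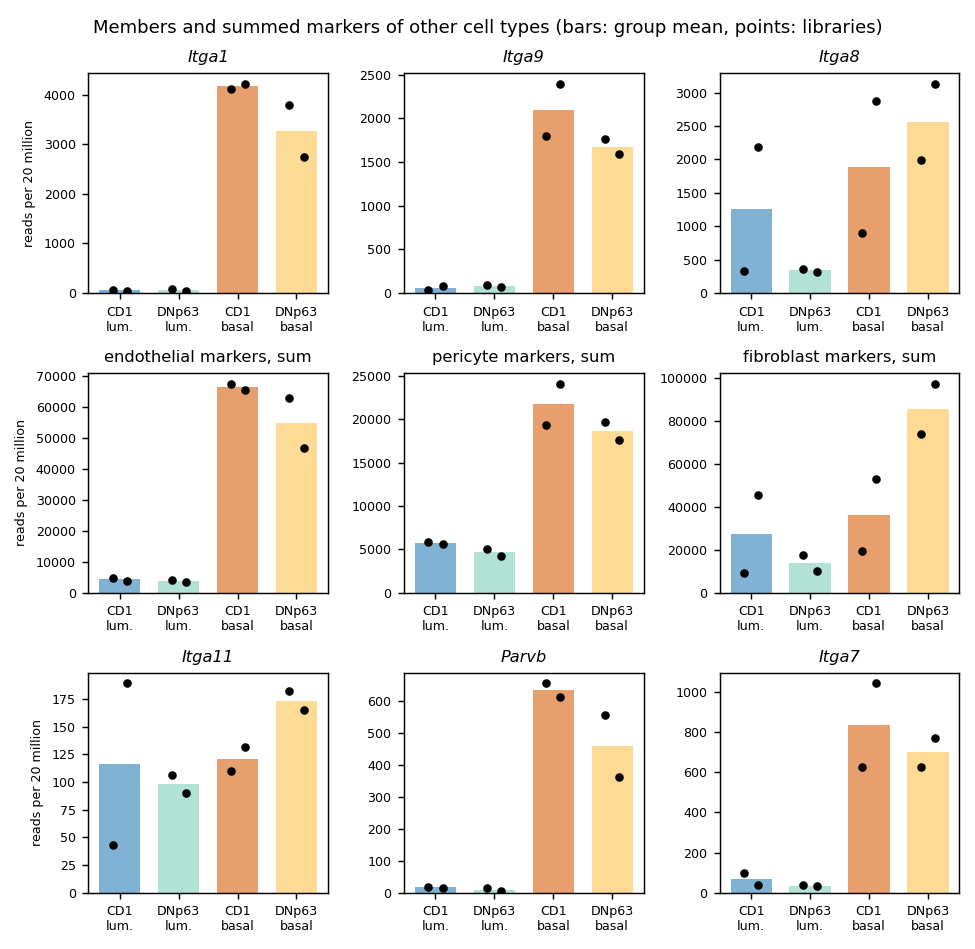
Values of 6 members and the summed values of endothelial, pericyte and fibroblast markers in reads per 20000000, with bars for group means and points for the 2 libraries of each group. Itga1, Itga9, Parvb and Itga7 are high in the basal gate together with the endothelial and pericyte sums, and Itga8 and Itga11 share with the fibroblast sum a high point in 1 CD1 luminal library.

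Leukocyte chains were near the floor of detection. Itgae, Itgam and Itgax stayed at 0 to 59, a second row named Itgam was 0 throughout, and Itgb2, the β chain of the leukocyte adhesion receptors, was at 12 to 87 and not called. Of the 3 tested, 2 rose in CD1 basal cells, against 24.2% of all tested genes called higher. Itgb7 and Itgb2 passed the filter only through the basal libraries, so the rise of Itgb7 adds no support to this count. Itgal was at 29 and 12 in CD1 luminal and 59 and 47 in DNp63 luminal libraries, and 106 and 68 in CD1 basal libraries and 34 and 49 in DNp63 basal ones. Its rise of 1.77 ± 0.42 (0.00885) in CD1 mice was lost without CD1 basal 1 (0.0624), and in DNp63 mice the groups overlapped (-0.29 ± 0.42, 0.603). Itgb7 had 36 to 47 in luminal and 64 to 97 in basal libraries, with 1.02 ± 0.32 (0.0300) and 0.93 ± 0.32 (0.0394) in the 2 gate comparisons. The first was lost without CD1 luminal 1, CD1 luminal 2, CD1 basal 1 or CD1 basal 2 (0.0526 to 0.107), and the second without any 1 of the DNp63 or CD1 basal libraries (0.0523 to 0.182). The immune sum was 876 and 897 in CD1 luminal and 1443 and 1941 in CD1 basal libraries, and Ptprc, which encodes CD45, was at 47 and 75 and at 165 and 96; their part was not tested.

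Hemidesmosome linkers were divided. Dst encodes the plakin BP230 of hemidesmosomes, along with longer isoforms, and was at 24392 and 34552 in CD1 luminal and 30625 and 31020 in DNp63 luminal libraries, and 93652 and 102690 in CD1 basal libraries and 75476 and 69113 in DNp63 basal ones. The gates did not overlap, and Dst rose by 1.74 ± 0.17 (8.35e-05) in CD1 and by 1.26 ± 0.17 (0.000448) in DNp63 mice. Plec, the plakin that binds the β4 tail, was lower in the basal gate, with means of 24431.5 ± 3550 (SD, n = 2) in CD1 luminal, 23036.5 ± 1520 in DNp63 luminal, 20429.5 ± 829 in DNp63 basal and 17758 ± 175 in CD1 basal libraries. It fell by 0.47 in CD1 mice (SE 0.13, 0.0192), a call lost without CD1 luminal 2 (0.0793), CD1 basal 1 (0.0898) or CD1 basal 2 (0.0780) and in a fit of the compared libraries (0.0675), and was not called in DNp63 mice (-0.14 ± 0.13, 0.397). Cd151, the tetraspanin bound to laminin-binding integrins, rose by 0.67 ± 0.15 (0.00710) in CD1 mice and gave 0.10 ± 0.15 (0.611) in DNp63 mice.

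Of the talins and kindlins, Tln1, Fermt1 and Fermt2 rose in both basal groups, and Tln2 and Fermt3 were not called. Tln1, the widely expressed talin, was at 5858 and 5916 in CD1 luminal and 5346 and 5478 in DNp63 luminal libraries, and 13144 and 14544 in CD1 basal libraries and 13475 and 15645 in DNp63 basal ones. Its basal level was higher in each mouse, at 2.32-fold (1.22 ± 0.12, 8.59e-05) and 2.74-fold (1.45 ± 0.12, 2.75e-05). Tln2 stayed at 1712 to 2487 in all libraries, with a CD1 basal to luminal interval of 0.716-fold to 1.33-fold. Fermt2, the kindlin of adherent cells, was at 2869 and 3160 in CD1 luminal and 2598 and 2645 in DNp63 luminal libraries, and 6469 and 7713 in CD1 basal libraries and 7275 and 7310 in DNp63 basal ones. It rose by 1.21 ± 0.13 (0.000116) and 1.50 ± 0.13 (2.98e-05). Fermt1, the epithelial kindlin, rose by 0.91 ± 0.19 (0.00465) and 1.33 ± 0.19 (0.000553). Fermt3, the kindlin of blood cells, was at 20 to 52 and not called.

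In the ILK complex, the parvins rose. Parva, the broadly expressed α-parvin, was at 3004 and 3153 in CD1 luminal and 2762 and 2559 in DNp63 luminal libraries, and 7234 and 6092 in CD1 basal libraries and 6053 and 6280 in DNp63 basal ones, and rose by 1.09 ± 0.12 (0.000121) and 1.24 ± 0.12 (5.07e-05). Parvb, the β-parvin, was at 18 and 15, 14 and 4, 655 and 611, and 557 and 363 in the same order of groups. It was close to its floor in luminal cells and rose 26.1-fold (4.71 ± 0.37, 2.50e-05) and 28.4-fold (4.83 ± 0.37, 1.66e-05). The ratio of Parva to Parvb per exonic kilobase was 72.6 and 91.4 in CD1 luminal libraries and 85.8 and 278 in those of DNp63 mice, whereas basal libraries had 4.80 and 4.34 (CD1) and 4.73 and 7.52 (DNp63). The luminal ratios rest on Parvb values of a few reads, and the highest of them on a value of 4, about 1 read. As with Itga1, DNp63 basal 2 had the lowest basal value of Parvb and the lowest basal endothelial, pericyte and adipocyte sums. The part of these cells was not tested. Ilk itself was listed at 0 to 14, although its partners were well detected. Opposite-strand genes cover 89.7% of its exonic bases (76.7% by Taf10 and 12.9% by Rrp8), and no source used here gives the strand setting of the counting, so these values cannot be read as absence of ILK transcripts.

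**Figure D4:**
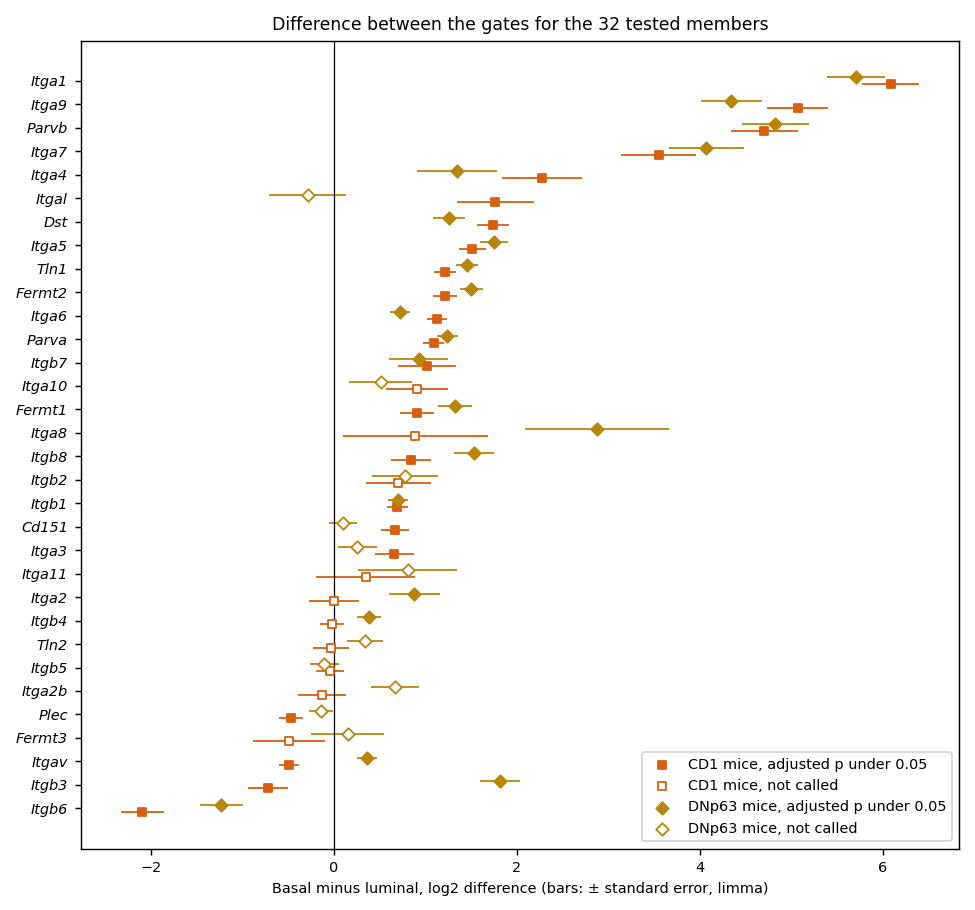
Basal minus luminal log2 differences of the 32 tested members in CD1 mice (squares) and DNp63 mice (diamonds), with bars of ± 1 SE from limma and filled symbols for an adjusted p under 0.05. Most members lie right of 0 in both mice, Itgb6 lies left in both, and Itgav and Itgb3 are called on opposite sides.

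The gate difference within DNp63 mice shares no library with that of CD1 mice. Both come from the same fit, however, and share its estimate of spread. In DNp63 basal against DNp63 luminal libraries 20 members rose, 1 fell and 11 were not called, against 24.9% and 24.4% of all tested genes (49.2% in either direction), with a median of 0.84 beside -0.08. The 15 members called higher in both mice were 15 of the 18 in CD1 and 15 of the 20 in DNp63 mice. They include Itga7, Itga4, Itgb7 and Parvb, which passed the filter only through the basal libraries and add no support to these counts. Itgb1, the transcript of the gating protein, is among them too and adds none either. Of all tested genes 3372 were called higher in both, 82.3% of those in CD1 and 80.3% of those in DNp63 mice, so the members' overlap was close to that of other genes. Itga3, Itgal and Cd151 were called in CD1 mice only, and Itgb4, Itga2 and Itga8 in DNp63 mice only; for none of these 6 was the difference between mice itself called in the interaction. DNp63 basal against CD1 luminal cells gave 18 members higher, 2 lower (Itgav and Itgb6) and 12 not called, against 25.1% and 22.2% of tested genes (47.2% in either direction), with a median of 0.85 beside -0.01. Itga7, Itga4, Parvb and Itgb1 are among these 18 as well, with the same limits. Between DNp63 basal and CD1 basal cells limma called 0 members, against 0.195% of tested genes called higher and 0.521% called lower (0.716% in either direction), and limma's voom fit on recovered reads also called 0. There 5 members had an unadjusted p under 0.05 (6 with voom), 3 of them higher, beside 11.2% of all tested genes (10.1% with voom), and the median was 0.03 beside -0.04.

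Per exonic kilobase, where levels of different genes can be set side by side, Itga6 made up the largest share of α chain transcripts in 7 of 8 libraries, and Itgav in CD1 luminal 1. The mean share of Itga6 was 37.5% in CD1 luminal, 46.5% in DNp63 luminal, 49.9% in CD1 basal and 44.9% in DNp63 basal libraries. Itgav took 37.0%, 21.9%, 16.0% and 16.6% in the same order, and Itga3 13.8%, 22.5%, 13.5% and 15.8%. CD1 luminal cells thus carried αv and α6 transcripts in like amounts, and the other 3 groups carried α6 well ahead of αv. Among β chains Itgb1 led in every library, with 58.7%, 61.3%, 70.8% and 66.5%. Itgb4 took 13.3%, 16.4%, 9.84% and 14.3%, and Itgb5 15.0%, 15.5%, 10.9% and 9.62%. Of the other αv partners, Itgb3 was at 5.74%, 1.41%, 2.59% and 3.47% and Itgb6 at 3.41%, 2.36%, 0.588% and 0.660%. These shares are descriptions of 2 libraries per group and assume the summed exons of each gene.

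**Figure D5:**
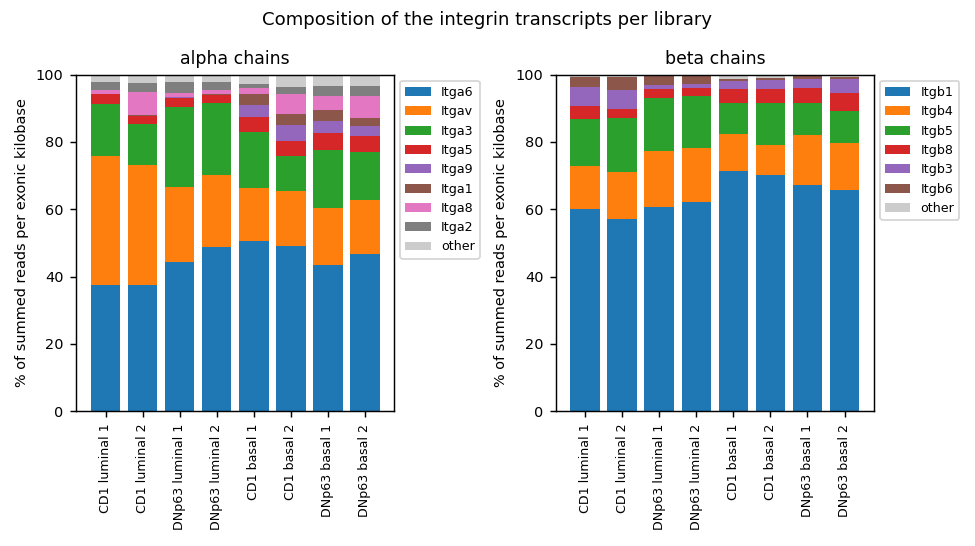
Share of each chain in the summed reads per exonic kilobase of all α chains (left) and all β chains (right), in percent, 1 stacked bar per library. The Itgav share is about as large as that of Itga6 in the CD1 luminal libraries and smaller in the other 6, and Itgb1 is the largest β share throughout.

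Other genes of the pathway were taken as lists. Of 30 adhesion plaque genes 20 rose and 2 fell in CD1 basal cells (median 0.67), and 21 rose and 2 fell in DNp63 basal cells. For these and the lists that follow, shares of all tested genes are given as higher and lower. They were 24.2% and 20.1% in the CD1 gates, and 24.9% and 24.4% in the DNp63 gates. Between the mice they were 2.66% and 1.78% in the luminal gate, and 0.195% and 0.521% in the basal gate. Among the large rises in CD1 mice was that of Lims2, a PINCH protein of the ILK complex (5.14 ± 0.28, 4.00e-06). Another was that of Tns1, a tensin that binds β chain tails (4.62 ± 0.20, 1.14e-06). Lims2, and Rasip1 and the type IV collagens Col4a1 and Col4a2 in other lists, were higher alongside the endothelial and pericyte sums between gates, whose part was not tested. Between the mice in the luminal gate 3 of the 30 fell and none rose, all of them tensins. Tns4 was at 571 and 1145 in CD1 luminal and at 189 and 192 in DNp63 luminal libraries, a fall of 2.10 (SE 0.33, 0.0103). Tns3 went from 2160 and 1619 to 844 and 1045, a fall of 1.05 (SE 0.18, 0.0162), and Tns1 from 330 and 438 to 231 and 177, a fall of 0.94 (SE 0.20, 0.0314). Tns3 was also called in the interaction (1.75 ± 0.26, 0.0381). In the basal gate only Ptk2b, the kinase PYK2, was called, falling by 1.68 from CD1 to DNp63 cells (SE 0.21, 0.0140), from 545 and 400 to 165 and 121. The luminal marker sum was also lower in DNp63 basal (15623 and 17475) than in CD1 basal libraries (38875 and 35447), and its part was not tested. Leaving out libraries, or fitting recovered reads with voom, ended several of these calls. Tns4 was lost without DNp63 luminal 1 or DNp63 luminal 2 (0.0662 and 0.0846), Tns3 likewise (0.120 and 0.0687), and Tns1 without any 1 library other than CD1 luminal 1 (0.0555 to 0.231). Ptk2b was lost without CD1 basal 1 (0.133), DNp63 basal 1 (0.0676) or DNp63 basal 2 (0.110), and the Tns3 interaction without any 1 of the DNp63 or CD1 basal libraries (0.125 to 0.176).

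Of 8 hemidesmosome and basement membrane link genes 7 rose and 1 fell in each gate comparison (median 4.04 in CD1 mice). Krt14 (6.72 ± 0.22, 3.93e-07), Krt5 (6.33 ± 0.18, 2.17e-07) and Col7a1, the anchoring fibril collagen (5.24 ± 0.34, 9.90e-06), led the list in CD1 mice. The gene that fell was Lad1, which encodes ladinin. In the luminal gate 2 chains of laminin-332 fell in DNp63 cells. Lamb3 went from 2050 and 1634 to 803 and 846, a fall of 1.20 (SE 0.13, 0.00239), and Lama3 from 1089 and 1216 to 797 and 552, a fall of 0.85 (SE 0.18, 0.0375). Lamb3 was called in the interaction as well (1.63 ± 0.19, 0.0201), which was lost without any 1 of the DNp63 or CD1 basal libraries (0.0939 to 0.119). The Lama3 call was lost without any 1 library other than CD1 luminal 1 and DNp63 luminal 1 (0.0540 to 0.237). Of the 8 tested tetraspanins 1 rose and 4 fell in CD1 basal cells, against 24.2% and 20.1% of all tested genes. The list was led by Tspan18 (3.96 ± 0.20, 2.55e-06), Cd82 (a fall of 2.29, SE 0.17, 1.67e-05) and Tspan8 (a fall of 1.46, SE 0.28, 0.00325). Cd81 fell by 0.61 between the mice in the luminal gate (SE 0.12, 0.0279) and Cd82 by 0.99 in the basal gate (SE 0.17, 0.0407). The luminal marker sum was also lower in DNp63 basal than in CD1 basal libraries, and its part in Cd82 was not tested. The Cd81 call was lost without CD1 luminal 1 or any 1 of the DNp63 libraries (0.0554 to 0.174), and the Cd82 call without any 1 of the DNp63 or CD1 basal libraries (0.0534 to 0.225). Among 12 regulators of integrin activity 8 rose and 1 fell in CD1 basal cells, with Rasip1, an effector of RAP1 known from endothelium (4.81 ± 0.37, 2.37e-05), Apbb1ip, the talin recruiter RIAM (2.15 ± 0.49, 0.00701), and Dab2 (1.54 ± 0.31, 0.00360) in front; none was called between the mice in either gate. Apbb1ip was lost without CD1 basal 2 (0.0572).

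Ligand genes included several that fell with the αv and β3 chains in DNp63 luminal cells. Of 21 ligands 11 rose and 5 fell in CD1 basal cells, against 24.2% and 20.1% of all tested genes, so the share that fell was near the background; the rises had the type IV collagens Col4a2 (5.13 ± 0.26, 3.03e-06) and Col4a1 (4.85 ± 0.34, 1.44e-05) and the laminin chain Lama1 (4.67 ± 0.17, 6.71e-07) in front. Between the mice 3 fell and none rose in the luminal gate. Spp1, which encodes the αvβ3 ligand osteopontin, was at 26749 and 44135 in CD1 luminal and 173 and 2411 in DNp63 luminal libraries, and 2944 and 4172 in CD1 basal libraries and 38 and 92 in DNp63 basal ones. It fell by 5.76 in the luminal gate (SE 0.96, 0.0135) and by 5.71 in the basal gate (SE 0.96, 0.0415). The luminal marker sum was also lower in DNp63 basal (15623 and 17475) than in CD1 basal libraries (38875 and 35447). Its part in the basal Spp1 fall was not tested. Mfge8, a secreted RGD protein of the mammary gland, fell by 1.32 (SE 0.22, 0.0129), from 23601 and 29232 to 11812 and 10236. Tnc, tenascin C, fell by 1.32 (SE 0.20, 0.00786), from 490 and 630 to 195 and 263. The luminal Spp1 call held without each library in turn, but the size of the fall rested on the DNp63 luminal libraries, with -3.89 without DNp63 luminal 1 and -7.62 without DNp63 luminal 2. Mfge8 was lost without DNp63 luminal 1 or DNp63 luminal 2 (0.0582 and 0.117), and Tnc without DNp63 luminal 1 (0.0561). In the basal gate Spp1 was the only ligand called between the mice, and this call was lost without any 1 of the basal libraries (0.208 to 0.223).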

How the data were processed

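RNA from 8 libraries of sorted mouse mammary cells was compared. The submitters' processing notes name STAR, HTSeq and GRCm38 (mm10), without versions, annotation release or strand setting. The deposited values are score values: per the labels and the values themselves, the authors scaled read counts to a total of 20000000 in each library and rounded them up. Whole reads were recovered for 99.8% to 99.9% of values, with 1 read worth 2.78 to 4.83 units. Replicates were compared by chi-square tests of the recovered reads and differed by more than sampling (6.34 to 16.5 times the degrees of freedom).

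Values were scaled by TMM (trims of 30% and 5%), 8 was added, and log2 values of genes with at least 40 in at least 2 libraries entered a limma fit (version 3.58.1, R 4.3.3) of 4 group means with trend (residual degrees of freedom 4, prior 4.691). Tests were two-sided, with Benjamini-Hochberg adjustment over 16900 genes. On simulated data the fit recovered 41% to 53% of 2-fold and 96% to 99% of 4-fold changes in the 5 comparisons, made 3 to 8 false calls, and recovered 20% and 89% for the interaction. The changed genes had expected values of at least 40 in all 8 libraries before the change, and all genes were given a common spread. These figures therefore do not cover members under 40 in a gate or genes with a wider spread. Of 49671 gene identifiers, 49326 were in GENCODE M21, the source of coordinates and exonic lengths. Alternatives were other pseudocounts, filters and scalings, voom on recovered reads, a replicate block, the compared libraries alone, and each library left out.

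Values in every library are given for Itgb1, Itga6 and Itgb4, for members called between the mice or in the interaction, and for the 12 called members with the largest CD1 gate differences. Itga2, Itga8 and Parva were shown in full after their values were seen. Of each pathway list, the 3 called genes with the largest differences in a comparison were to be named; those of the gate comparison of DNp63 mice are given as counts only, and some results for single genes of the lists are not reported here. The members and lists were chosen with earlier results of these data known.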

Additional observations from a re-analysis of the deposited data

Results flagged for a closer look

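The Itgb3 difference between the mice in the basal gate less that in the luminal gate, 2.54 on the log2 scale (SE 0.31, limma adjusted p = 0.0243), was the only one of 32 tested members called in this comparison. It was picked out because the effect of the DNp63 mice on Itgb3 differed between gates. Itgb3 was lower in DNp63 than in CD1 cells by 2.04 in the luminal gate, in 2 of 2 libraries, and differed by 0.50 ± 0.22 (adjusted p = 0.448) in the basal gate.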

How the results depend on the processing

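No member difference that was called changed direction under any of the alternatives run, and of the member results recomputed 2940 kept their side of the threshold, 65 lost a call and 23 gained one. Leaving out each library in turn gave 15 to 18 members higher and 2 to 4 lower in CD1 basal against CD1 luminal (5346 to 7077 genes), 0 to 1 and 1 to 3 in DNp63 luminal against CD1 luminal (142 to 984), 0 to 1 and 0 in DNp63 basal against CD1 basal (3 to 190), 14 to 22 and 1 in DNp63 basal against DNp63 luminal (5821 to 8739), 15 to 20 and 2 to 3 in DNp63 basal against CD1 luminal (5865 to 7597), and 0 to 2 and 0 in the interaction (4 to 163). Where that leaves 1 library in a group, it is assumed to vary like the others. In DNp63 luminal against CD1 luminal, 751 genes were called, 442 without the filter, and 40 in a fit of the compared libraries, which held 1 of the 2 members called lower and none of the 9 pathway genes named for that comparison. In DNp63 basal against CD1 basal, 121 genes were called, 45 without the filter and 65 with voom. In the interaction, 58 genes were called, 116 with a pseudocount of 32, 10 without the filter, which held 0 members, and 22 with voom. Without CD1 luminal 1, Cd151 (adjusted p = 0.0431) and Itga8 (0.0322) were also called between the mice in the luminal gate, and Itga2b (0.0271) between the DNp63 gates, as it was without CD1 luminal 2 (0.0290). For pathway genes the same alternatives, added after the data were seen, kept 866 calls and ended 76, with no change of direction. The voom fit on recovered reads ended the calls between the mice in the basal gate of Ptk2b (adjusted p = 0.101), Cd82 (0.106) and Spp1 (0.321). It also ended those of Tns1 (0.127) and Lama3 (0.0613) in the luminal gate and the Tns3 interaction (0.0576). The causes were not tested.

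With a replicate block, 1 member was called higher between the mice in the luminal gate (Itga3, 0.0322) and 1 in the basal gate (Itgb4, 0.0392), Itga8 was called in DNp63 basal against CD1 luminal (0.0480) and Itgb7 was lost in the DNp63 gates (0.0514); 203 genes were called in DNp63 basal against CD1 basal and 128 in the interaction. The labels do not say what the replicate number marks. Deviations of same-numbered libraries correlated across genes at 0.341 between the CD1 groups and 0.267 between the DNp63 groups, and at -0.0144 to 0.0404 in the other 4 pairs of groups. Same-numbered libraries of the same mice thus shared part of their deviation, which the main fit ignored. They were not treated as paired because the labels give no pairing. The replicate block fits a shift common to all groups and does not model pairing within the mice. With 4136987 to 7206700 reads, values under about 40 rest on some 10 reads, and leukocyte chains at that level are limited by depth.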
